A study of Mus musculus with 2 samples.

Results

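Exonic DNase I hypersensitive sites away from transcription start sites (TSSs) were described in the heart of newborn mice. They were chosen by position only. A site is a pair of peaks, 1 from each library, that overlap by at least 1 bp on chromosomes 1 to 19, and both peak centres lie inside an exon of a GENCODE vM21 protein-coding gene and more than 1 kb from every annotated TSS. Of 110859 peak pairs on these chromosomes, 3381 met the rule (3.05%), which is 4.28% of the 78966 pairs over 1 kb from a TSS. The pairs split into 1188 in coding sequence, 1540 in untranslated regions (UTRs) and 612 in exons that belong only to non-coding transcripts of the gene, and in the remaining 41 the class differed between the libraries. Of the UTR sites, 1485 were in 3′ UTRs, 53 in 5′ UTRs and 2 in sequence annotated as both.

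In DNase-seq, nuclei are treated with DNase I, which cuts DNA that is not wrapped tightly in nucleosomes, and the ends are sequenced. The series has 1 group: heart tissue of strain B6NCrl at postnatal day 0, with no treatment, transgene or second genotype named in the labels. Its 2 libraries are numbered as biological replicates 1 and 2 and come from separate biosamples under the same donor label, with sex not collected. Whether tissue of several pups was pooled is not given in the sources used here. Each SD below is therefore a spread over 2 libraries that may be technical in origin, and with 1 group no test between conditions exists.

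Exons serve chiefly to encode protein and to shape the messenger RNA, and most regulatory DNA lies in promoters, introns and intergenic sequence. Transcription factors can also bind inside exons, where the same bases carry a codon and a binding motif, and exons of one gene can act as enhancers of the same or another gene. CTCF, a zinc finger protein that anchors chromatin loops, AP-1, a Fos and Jun dimer, and MEF2, a factor of muscle genes, are among the factors known to occupy open chromatin in the heart.

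Replicate 1 had 160637 peaks on chromosomes 1 to 19 and replicate 2 had 141255. Every peak is 150 bp long and carries 1 signal value, with medians of 36 and 35 over each list. No read totals were in the files used here, so the depth behind a value is unknown. The tissue label was checked by peaks within 500 bp of a TSS, called promoter peaks here: 15 of 15 cardiomyocyte, endothelial and fibroblast marker genes had one in both libraries. Of 7 genes foreign to the heart none had one in both, and 1 had one in replicate 2 only. Over all protein-coding genes, 13535 of 20807 (65.1%) had one in both libraries. So did 14 of 24 brain neuron genes and 3 of 23 hepatocyte genes, so the check is coarse. In whole tissue, fewer cells of a type and less open chromatin per cell cannot be told apart.

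Sequences from exonic sites are shown first, because the same bases lie in an exon and match a factor's motif. The 6 highest coding sites with a match to the CTCF consensus follow, each as 30 bases from GRCm38 (mm10), 5′ to 3′ on the strand of the match, with the match in capitals. Motifs were searched on both strands, and a match is a description of letters, not of binding.
Synpo2l: ttcatgcagCCACTAGGGGGCaggagttac
Rasip1: ggtcctgcaCCAGCAGAGGGCgctccgcgt
Utrn: aactcctggCCACCAGAGGGCaccttggca
Dgki: acacactcgCCAGCAGGTGGCgctcgctta
Mroh6: cgtgtctgcCCAGCAGGTGGCgctgcttgc
Eri1: tcatccttaCCAGTAGAGGGCgctccagct

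The Synpo2l window is chr14:20661153-20661182 on the minus strand, in the last coding exon of a gene for an actin-binding protein of striated muscle, and its peak had values of 96 and 99 in replicates 1 and 2. The Rasip1 window, chr7:45628950-45628979 on the minus strand, lies in an internal exon of a regulator of endothelial tube formation, with peak values of 79 and 75. In Utrn, which encodes the dystrophin relative utrophin, the window is chr10:12690809-12690838 on the plus strand, with 72 and 67. The other windows are chr6:37097521-37097550 (plus) in Dgki, a diacylglycerol kinase gene, chr15:75884288-75884317 (minus) in Mroh6, and chr8:35469155-35469184 (minus) in Eri1, an RNA exonuclease gene. Their values were 70 and 66, 61 and 66, and 68 and 57. In all 6 of these sites the peaks of both libraries lay at the same position.

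Other factors' motifs are shown by the highest site with a match. Fry has the AP-1 letters TGANTCA in an internal coding exon, Rassf4 and Fam189a2 have a MEF2 match and the TEAD letters GGAATG in 3′ UTRs, and Angptl6 has the KLF/SP letters GGGCGG in a coding exon.
Fry: gaggattccgaTGAGTCAtccgaggaggac
Rassf4: ttcttggggcCTAAATATAGtccatgcgtc
Fam189a2: ccttacagcaagGGAATGaacttggcaaca
Angptl6: agcaggaggcgaGGGCGGagcctgacctgg

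The Fry window is chr5:150466376-150466405 (plus), the Rassf4 window chr6:116635358-116635387 (plus), the Fam189a2 window chr19:23973053-23973082 (plus) and the Angptl6 window chr9:20878246-20878275 (minus). Of the Angptl6 window, 10 bases lie outside the replicate 1 peak, but the match lies inside both peaks. The Fam189a2 peak had values of 102 and 97, and the values of the other genes are given below.

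Exonic sequence held more shared peaks per Mb than introns. Coding sequence over 1 kb from a TSS spans 24.0 Mb and had 55.1 shared peaks per Mb in replicate 1 and 55.2 in replicate 2, against 44.4 in both libraries for introns. Sequence outside genes had 28.0 in both. The 3′ UTRs, with 29.7 Mb, had 50.8 and 50.9 per Mb, and exons of non-coding transcripts had 55.5 and 55.1. The 5′ UTRs stood highest with 91.9 and 93.5 per Mb, but these rest on 57 and 58 peaks over 0.620 Mb. The density in coding sequence was 1.24 ± 0.00237 times that of introns (SD, n = 2), and that in all UTRs 1.17 ± 0.00246 times. Both libraries count the same pairs, so this SD is small by construction and does not measure how well the density is known. The order of coding sequence and UTRs turned around when only the stronger 50% of peaks of each library were kept, with ratios of 1.10 and 1.25. When all 150 bp had to be exonic, the ratios were 1.53 and 1.19. The class lengths include repeats, which are unevenly spread. Repeats covered 50% or more of 23.3% of 150 bp intron windows that overlap no peak, and of 34.9% outside genes. In coding sequence this held for 1.37% of such windows and in 3′ UTRs for 11.6%. Of shared intron peaks, 4.63% and 4.62% had such cover in replicates 1 and 2. The classes also differ in distance to a TSS. At 1 to 5 kb lay 10.5 of the 24.0 Mb of coding sequence and 12.2 of the 29.7 Mb of 3′ UTRs. Of introns this held for 194 of 827 Mb. The ratios are not matched for this distance, and densities by distance are given below. The parts of repeats and of TSS distance in these density ratios were not tested.

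**Figure D1:**
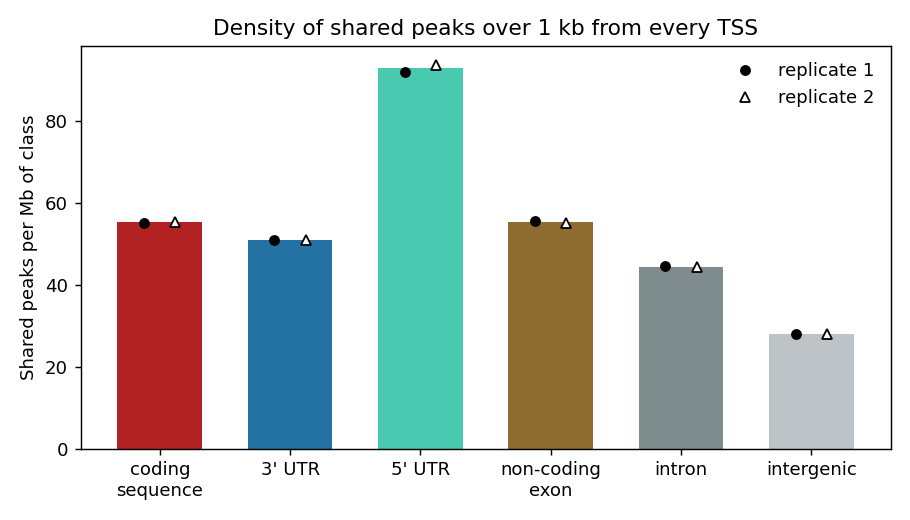
Shared peaks per Mb (vertical axis) in 6 classes of sequence over 1 kb from every TSS; bars are means of 2 libraries, circles replicate 1 and triangles replicate 2. The 4 exonic classes lie above the introns at 44.4 per Mb, and the 5′ UTR bar rests on the fewest peaks.

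Density fell with distance from a TSS in exons and introns. Coding sequence had 64.6 ± 0.336 shared peaks per Mb at 1 to 5 kb, 49.2 ± 0.218 at 5 to 20 kb and 46.1 ± 1.60 at 20 to 100 kb (SD, n = 2). Introns had 56.0, 47.1 and 37.7 per Mb in the same ranges, so coding sequence was above introns in each of these 3. The 3′ UTRs had 53.2, 52.3 and 41.5 per Mb, which is below introns in the nearest range and above them in both farther ones. Beyond 100 kb, coding sequence had only 3 and 6 peaks, or 18.1 ± 8.52 per Mb (SD, n = 2), against 29.9 in 3′ UTRs and 20.3 in introns.

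**Figure D2:**
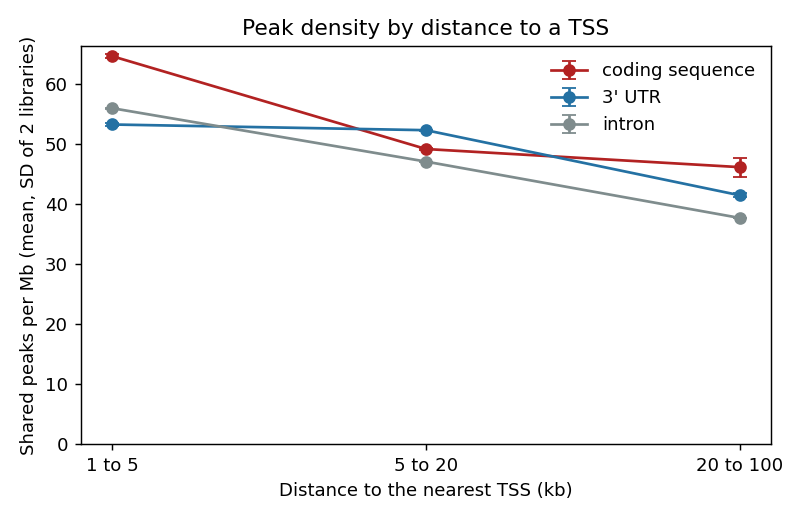
Shared peaks per Mb (mean and SD of 2 libraries) against the distance to the nearest TSS in kb, for coding sequence, 3′ UTRs and introns. Each line ends lower than it starts, at 46.1, 41.5 and 37.7 per Mb; the range beyond 100 kb is not drawn.

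Within coding sequence, density was higher in last exons and in longer exons. The last exon, which ends the transcript and usually holds the stop codon, had 74.8 ± 0.108 shared peaks per Mb of coding sequence, against 47.8 ± 0.162 in other exons (SD, n = 2). Exon length here is that of the longest exon over a base in any transcript of a protein-coding gene. A coding exon inside a longer exon of a non-coding transcript thus counts as long. By this length, coding parts of exons under 150 bp had 41.0 per Mb and those of 150 to 500 bp 53.9. Those of 500 to 1000 bp had 77.8 and those of 1000 bp or more 63.8. Long exons and last exons overlap as groups, and their parts in the density were not tested apart. Of the 1188 coding sites, 694 lay in internal exons, 374 in last exons, 24 in first exons and 21 in single-exon genes. In 628 of them (52.9%) a splice site lay within 75 bp of either peak centre. Only splice sites of exons that hold the centre, in protein-coding transcripts, were counted. In 598 (50.3%) all 150 bp were exonic in both libraries, and some sites belong to both groups. Windows of 150 bp centred in coding sequence are all exonic for 41.3% of its length. In 3′ UTRs, 1392 of 1485 sites lay in last exons, and 1432 were wholly exonic.

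Peak values of exonic sites lay in the range of other distal sites. Over all 3381 sites the values of replicate 1 ran from 3 to 125 (median 42) and those of replicate 2 from 2 to 112 (median 38), and the mean of both medians was 40 ± 2.83 (SD, n = 2). The medians of coding sites were 39 and 35, of 3′ UTR sites 43 and 40, of 5′ UTR sites 49 and 45 and of non-coding exons 43 and 38. Shared intron peaks had medians of 42 and 38, and shared intergenic peaks 39 and 35. A value of 100 or more in both libraries was found at 15 exonic sites (0.444%), against 0.458% of all pairs over 1 kb from a TSS and 3.46% of all pairs, promoters included. At or above the 90th percentile of all peaks in both libraries stood 140 exonic sites (4.14%), against 4.38% of pairs over 1 kb from a TSS. Of the 15 sites at 100 or more, 5 were in 5′ UTRs, 5 in 3′ UTRs, 3 in coding sequence and 1 in a non-coding exon, and in the last 1 the class differed between the libraries. Across sites, Spearman's rho between libraries was 0.894 (n = 3381 sites, all chosen for being in both). The value was higher in replicate 1 at 2258 sites, higher in replicate 2 at 963 and equal at 160, with a median log2 ratio of replicate 2 over replicate 1 of -0.14. The peak stood at the same position in both libraries at 1134 sites (33.5%), and the median shift was 20 bp, which is 1 step of the grid on which peak starts lie.

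**Figure D3:**
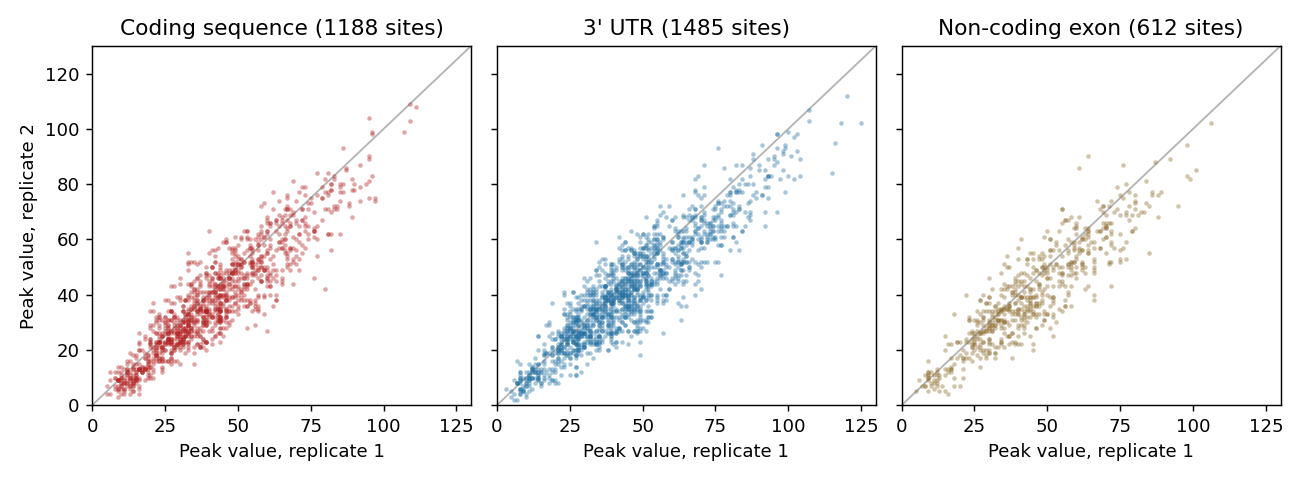
Peak value in replicate 2 against replicate 1 for every coding, 3′ UTR and non-coding exon site; the grey line marks equal values. Points follow the line from values under 10 up to about 110, with more points under the line, where replicate 1 is higher.

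The 3381 exonic sites are the ones found again. Of coding peaks, 66.6% in replicate 1 and 77.5% in replicate 2 overlapped a peak of the other library, and of 3′ UTR peaks 69.3% and 80.1%. Over all exonic peaks the shares were 68.2% and 79.3%, a mean of 73.8% ± 7.89 (SD, n = 2), which follows the different lengths of the lists. The shares were 66.9% and 79.6% for intron peaks and 70.2% and 79.9% over all peaks, so exonic peaks were found again about as often as others. Unshared exonic peaks had lower values, with medians of 26 and 22. At the edge of the rule, the 187 pairs in the first 200 bp beyond 1 kb from a TSS had medians of 44 and 42, and the 261 exonic pairs in the last 200 bp before it, left out, had 43 and 38. A further 252 pairs had only 1 of their 2 centres in an exon and were left out.

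The bases of exonic sites were richer in G and C than exons without a peak. Median GC content was 56.0% in coding peaks of both libraries, and 56.3% ± 0.471 (SD, n = 2) over the 1188 coding sites, against 50.7% in 150 bp coding windows that overlap no peak. In 3′ UTRs it was 52.0% against 42.7%, and in introns 50% against 42.7%. CpG dinucleotides, observed over expected from base content, had medians of 0.432 and 0.435 in coding peaks against 0.327 in the windows, and of 0.242 and 0.250 in 3′ UTR peaks against 0.178. Repeats covered 50% or more of 0.528% and 0.452% of coding peaks and of 2.52% and 2.65% of 3′ UTR peaks, against 1.37% and 11.6% of windows. Of shared exonic peaks, 99.3% and 99.5% lay inside a hotspot, a wider region of raised cleavage called by the authors. The shares were much the same for shared intron peaks (99.1% in both libraries) and intergenic peaks (98.9% and 98.8%).

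CTCF matches were more frequent in 3′ UTR sites than in coding sites. A match in both peaks was found at 62 of 1188 coding sites (5.22%), 131 of 1485 3′ UTR sites (8.82%), 39 of 612 sites in non-coding exons (6.37%) and 3 of 53 5′ UTR sites, against 5.72% of all pairs over 1 kb from a TSS. Taken as a mean over the 2 libraries, 5.35% ± 0.0595 of coding sites had a match (SD, n = 2). Windows without a peak held one in 0.0668% of cases in coding sequence and 0.0431% in 3′ UTRs. Coding sites with a match had median values of 49 and 48 in replicates 1 and 2, and those without had 39 and 34. In 3′ UTRs the medians were 48 and 50 with a match and 43 and 38 without. The peak stood at the same position in both libraries at 54.8% of coding sites with a match and 33.6% of those without. This contrast was smaller in 3′ UTRs, with 42.0% and 33.1%, and in non-coding exons, with 35.9% and 31.6%. The match lay a median of 19.5 bp from the peak centre in coding sites and 16.5 bp in 3′ UTR sites. It ran along the gene's strand in 28 coding sites and against it in 34.

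Seen from the motif, the share of CTCF matches that lie in a peak differed between exon classes. In coding sequence 198 matches over 1 kb from a TSS were found, and 32.6% ± 0.357 lay in a peak (SD, n = 2). In 3′ UTRs it was 57.7% ± 1.72 of 246 matches, in non-coding exons 48.8% of 84, in introns 44.7% ± 0.583 of 4487 and between genes 46.0% ± 1.5 of 5266. The coding share lay below and the 3′ UTR share above that of introns in both libraries. For NRF1, a factor of genes for mitochondrial and housekeeping functions, coding sequence stood highest instead of lowest: 14.4% ± 0.370 of 191 in coding sequence, 5.79% ± 0.744 of 95 in 3′ UTRs and 2.78% ± 0.0677 of 2090 in introns. The coding figure rests on 28 and 27 matches in a peak, and this share was not split by GC content. For MEF2 the shares were 3.09% of 97 matches in coding sequence, which are 3 matches in each library, 5.99% ± 0.550 of 643 in 3′ UTRs and 6.74% ± 0.522 of 19241 in introns. For AP-1 they were 1.32% ± 0.196 of 5407, 1.61% ± 0.195 of 9050 and 1.74% ± 0.216 of 265600. Non-coding exons had 6.25% ± 0.268 for MEF2 and 1.97% ± 0.196 for AP-1. Between genes the shares were 3.66% ± 0.251 for MEF2 and 1.12% ± 0.0937 for AP-1, the latter below the coding share.

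**Figure D4:**
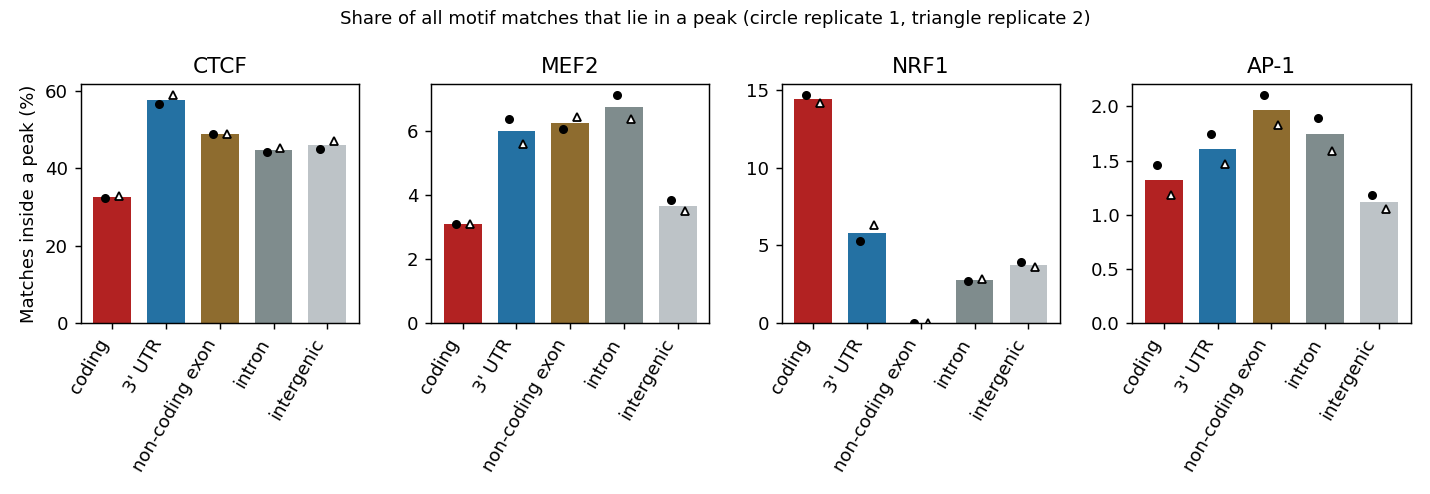
Share of all motif matches over 1 kb from a TSS that lie in a peak (vertical axes, %, each panel with its own scale), by class of sequence; bars are means of 2 libraries. For CTCF the coding bar, at 32.6%, is the lowest and the 3′ UTR bar, at 57.7%, the highest of the 5, while for NRF1 the coding bar is the highest at 14.4%.

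Other motifs were counted in peaks and in windows of the same length without a peak. The AP-1 letters TGANTCA stood in 4.49% ± 0.366 of coding peaks (windows 3.46%), 6.73% ± 0.334 of 3′ UTR peaks (windows 4.21%) and 8.60% ± 0.0166 of intron peaks (windows 4.45%) (SD, n = 2). MEF2 matches stood in 0.565% ± 0.0542 of coding peaks (windows 0.101%), 2.05% ± 0.0956 of 3′ UTR peaks and 2.87% ± 0.0182 of intron peaks. The E-box CAGCTG, read by bHLH factors, stood in 20.6% ± 0.300 of coding peaks and 11.9% of coding windows. The KLF/SP letters GGGCGG stood in 10.2% ± 0.357 of coding peaks and 3.75% of windows. Among peaks and windows with 50 to 60% GC only, the KLF/SP shares were 5.06% and 4.21%, while AP-1 had 6.02% and 3.01% and the E-box 23.1% and 14.6%. In the same GC range, AP-1 stood in 8.28% of intron peaks, above the coding share. The GATA letters AGATAA were in 5.24% ± 0.0617 of coding peaks and 5.95% of windows. At 50 to 60% GC the shares were 5.14% ± 1.25 and 3.17%. In that range the libraries lay far apart, with 4.26% of 564 coding peaks in replicate 1 and 6.02% of 581 in replicate 2. NRF1 matches stood in 1.28% ± 0.109 of coding peaks and 0.0886% of windows. At 50 to 60% GC they stood in 0.177% of 564 coding peaks in replicate 1, 0% of 581 in replicate 2 and 0.0750% of windows. MEF2 matches stood in 0.532% and 0.516% of the coding peaks of replicates 1 and 2 in that range, and in 0.0234% of windows. The contrast of coding peaks with windows therefore shrank with GC held to this range for KLF/SP, widened for AP-1 and turned around for GATA. For NRF1 and MEF2 too few coding peaks held a match to judge this. At any GC they were 18 and 16 peaks for NRF1 and 8 and 7 for MEF2 in replicates 1 and 2.

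The highest coding sites lay in genes of several functions. Angptl6 (ENSMUSG00000038742.7), an angiopoietin-like secreted protein, had values of 111 and 108 in replicates 1 and 2 at chr9:20878256-20878405 (replicate 1), in an internal exon 1396 bp from the nearest TSS. Slc4a5 (ENSMUSG00000068323.12), a sodium bicarbonate cotransporter, had 109 in both libraries at chr6:83268296-83268445, 9022 bp from a TSS, and 87 of its 150 bp in replicate 1 were exonic. Zfp771, a zinc finger gene, had 109 and 103 at chr7:127254156-127254305 in the last exon. Fry, which encodes a large microtubule-binding protein, had 107 and 99 at chr5:150466296-150466445, the site of the AP-1 window above. Lpar5, a lysophosphatidic acid receptor, had 95 and 104 at chr6:125081916-125082065. Synpo2l had 96 and 99, as given above. Fbxl22, an F-box protein of the cardiac Z-disc, had 96 and 98 at chr9:66511736-66511885. Apoa1, the main protein of high-density lipoprotein, had 95 and 90 at chr9:46230016-46230165. All 8 sites had 90 or more in both libraries, against coding medians of 39 and 35. Of these genes, Angptl6, Slc4a5, Lpar5 and Apoa1 had no promoter peak in either library, and Apoa1 is 1 of the 7 genes foreign to the heart in the marker check.

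In 3′ UTRs the highest site was in Rassf4 (ENSMUSG00000042129.8), a Ras association domain gene, with 120 and 112 at chr6:116635356-116635505, and it holds the MEF2 match printed above. Bcat2, the mitochondrial enzyme of branched-chain amino acid breakdown, had 125 and 102 at chr7:45589276-45589425. Slc47a1, a drug and cation efflux transporter, had 118 and 102, with MEF2 and GATA matches, at chr11:61366676-61366825, in sequence annotated as 3′ UTR that stands 33.1% of the way from the gene's 5′ end. Sox12, a SoxC transcription factor, had 107 in both, and Hist1h1d, a linker histone, 107 and 103. Fam53b had 116 and 95, Skap2, a Src adaptor, 103 and 98, and Lpin2, a phosphatidate phosphatase, 100 and 99 with a MEF2 match. The site in Fam53b was 54507 bp from the nearest TSS, the farthest of these 8.

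The highest 5′ UTR sites were Sf3b5, a splicing factor subunit, with 111 in both libraries, the histone demethylase gene Kdm6b with 116 and 101, Zfp503 with 107 in replicate 1 and 106 in replicate 2, and a site shared by B430305J03Rik and Rap2b with 107 and 103. They lay 3028, 4536, 1550 and 1420 bp from the nearest annotated TSS. Sf3b5, Kdm6b and Zfp503 had no promoter peak in either library, counted at annotated TSSs only. The Sf3b5 site stood 78.8% of the way from the gene's 5′ end, in an exon of 3841 bp. Use of a start outside the annotation was not tested. Over all 53 5′ UTR sites, 10 lay in genes without a promoter peak in either library, against 211 of 1188 coding, 189 of 1485 3′ UTR and 25 of 612 non-coding exon sites. In non-coding exons the highest were Tob2, an antiproliferative gene, with 106 and 102, Dip2b with 98 and 94, the muscle Z-disc gene Pdlim3 with 101 and 85, and Palmd with 92 and 89.

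Exonic sites fell in 2795 of 20807 protein-coding genes (13.4%). Of these genes, 2297 had 1 site, 380 had 2, 93 had 3, 16 had 4, 6 had 5, 2 had 6 and 1 had 9. The share of genes with a site followed the length of exon open to the rule: with genes of such exons ranked by this length and cut into 4 equal groups, it was 4.33% in the group with the least and 28.0% in the group with the most, while the sites per Mb of exon went from 67.7 down to 49.3. Genes with a promoter peak in both libraries had 55.2 sites per Mb of exon and the other genes 40.2. Lists are therefore given with both the count of genes and the sites per Mb.

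Among 32 genes of the sarcomere, the contractile unit of muscle, 8 had a site (25%), with 56.0 sites per Mb of exon against 51.9 over all genes. Ldb3, a Z-disc protein, had 87 and 69 in its 3′ UTR. Csrp3, a muscle LIM protein, had 78 and 66 at the end of its coding sequence, where the class differed between the libraries. Tnnt2, cardiac troponin T, had 68 and 57 in an exon of a non-coding transcript. Titin's 5 coding sites had values from 25 to 33 in replicate 1 and 27 to 34 in replicate 2. With 107985 bp of exon, Ttn had 46.3 sites per Mb, which is near the value over all genes.

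Ion channel and calcium handling genes had a site in 3 of 27 (23.7 per Mb), among them Kcne1, a potassium channel subunit, with 98 and 85 in the 3′ UTR, and Gja5, the connexin of the atrial and conduction system, with 70 and 59 in the 3′ UTR and 41 and 32 in coding sequence. The coding site of the third, Ryr2, the calcium release channel, had only 15 and 9. Cardiac transcription factors had one in 3 of 25 (25.1 per Mb): Zfpm2, a GATA4 cofactor, with 79 and 62 in the 5′ UTR, Tead1 with 38 and 41, and a coding site at 60 and 66 in sequence shared by Mef2a and Lysmd4, which cannot be assigned to either. Both lists had fewer sites per Mb than all genes. Promoter peaks in both libraries were present at 24 of 27 and 23 of 25 of their genes, against 65.1% of all protein-coding genes. Fatty acid and mitochondrial genes had a site in 3 of 24 (53.7 per Mb), including 2 in Lpl, lipoprotein lipase.

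Lists for other cells of the heart wall had from 58.6 to 120 sites per Mb, against 51.9 over all genes. Endothelial genes had one in 5 of 25 (58.6 per Mb), among them Flt1, a VEGF receptor, with 77 and 80, and the lowest site was in Npr3, with 22 and 14. Fibroblast and matrix genes had one in 5 of 24 (59.6 per Mb), and Vim, vimentin, held 2 with 66 and 59, and 58 and 59, while a coding site in Col6a3, a collagen VI chain, had 11 and 13. Smooth muscle and pericyte genes had one in 7 of 16 (120 per Mb), with 61 and 66 at Notch3, a receptor of vascular smooth muscle, 42 and 39 at Acta2, smooth muscle actin, and only 10 and 11 at Myh11, smooth muscle myosin. Synpo2 held 2 sites, with 49 and 55, and 20 and 13. Immediate early genes, which are transcribed within minutes of a stimulus, had one in 8 of 22 and 309 sites per Mb of exon. By the replicate 1 peak, their 15 sites lay between 1058 and 9070 bp from the nearest TSS, with values from 33 to 86, and Fosl2 held 5 and Ier5 held 3 of them. Klf4 had 86 and 77 in coding sequence, Ier2 84 and 82 and Jun 81 and 73 in the 3′ UTR. All 22 had a promoter peak in both libraries.

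Gene families ranged widely. Olfactory receptor genes had sites in 9 of 1087 (5.36 per Mb), zinc finger genes named Zfp in 34 of 383 (26.2 per Mb) and forkhead genes in 2 of 41 (15.5 per Mb). Solute carriers had sites in 66 of 348 (63.9 per Mb) and kinesins in 10 of 37 (67.5 per Mb), and ribosomal protein genes, with only 38.0 kb of exon open to the rule, in 3 of 72 (78.9 per Mb). Promoter peaks in both libraries were present at 12 of the olfactory genes (1.10%) but at 326 of the Zfp genes (85.1%), against 65.1% of all protein-coding genes. The low density of Zfp genes thus came with open promoters. Brain neuron genes had sites in 4 of 24 (25.7 per Mb), with values from 9 to 40, and hepatocyte genes in 2 of 23 (33.4 per Mb), among them Apoa1.

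The most sites were found in Tchh, which encodes the hair follicle protein trichohyalin and is not a heart gene in textbook terms. All 9 were coding sites, spread from chr3:93443636 to 93447445, and their values were 24 to 62 in replicate 1 and 20 to 51 in replicate 2. Tchh had no promoter peak in either library. GC content of its 9 sites ran from 56.0 to 68.7%, and repeats covered at most 38.7% of a site. The part of repeated coding sequence or of base content in this run was not tested. Sox4, a SoxC factor with a single exon, had 2 coding and 4 3′ UTR sites, with values from 28 to 67 and from 30 to 68. Dst, a giant spectraplakin, had 5 coding sites and 1 in a non-coding exon, from 6 to 76 and from 4 to 63. Aak1, a kinase of clathrin-mediated uptake, had 5 in its 3′ UTR, of which the highest had 99 and 93. Jmjd1c, Fosl2, E130308A19Rik and Ttn had 5 each. The 8 genes differ in pattern, but a site can lie only where exon is open to the rule. Sites of Aak1 and E130308A19Rik gather at the 3′ end, in last exons of 16020 and 9207 bp. All exon over 1 kb from a TSS in these genes is 17273 and 11186 bp. Sites of Tchh, Sox4 and Ttn are spread along the gene, and those of Tchh all lie in its last exon of 5685 bp. The pattern was not set apart from the place of the exons.

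**Figure D5:**
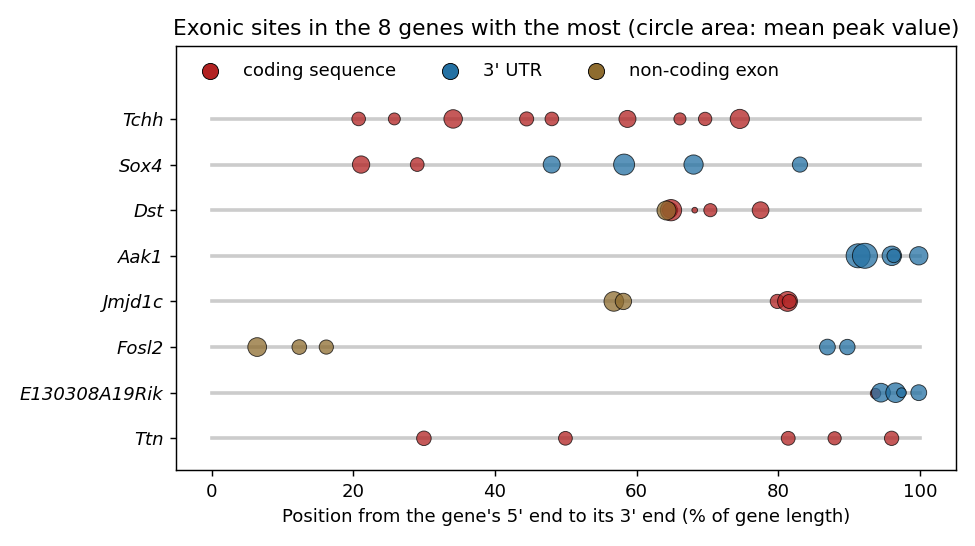
Exonic sites along the 8 genes with the most sites, from the 5′ end (0%) to the 3′ end (100%) of each gene; each circle is a site, its area follows the mean peak value of 2 libraries and its colour the class. Tchh has 9 coding sites with mean values from 22 to 56.5, and the 5 circles of Aak1 stand near the 3′ end.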

How the data were processed

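DNase-seq peaks and hotspots of 2 libraries were used. Each library's deposited text file says that both were called per replicate from filtered alignments to mm10. No source used here gives the aligner, the caller or any threshold. The authors' peak lists hold a signal value per peak, a whole number whose normalization is not stated. The hotspot lists of the authors hold a −log10 q-value of at most 100. Repeated rows (9 and 10) were dropped. Each peak was paired with at most 1 overlapping peak of the other library, the nearest for both. Centres were placed on GRCm38.p6 with GENCODE vM21, as coding before UTR before other exons, and densities are paired peaks over the length of each class. Windows without a peak came from a grid of 150 bp in exons and 3000 bp elsewhere. The 17 motifs were searched as consensus letters, so a match is not a scored site. Named genes were the 8 highest coding and 3′ UTR sites, the 4 highest 5′ UTR and non-coding exon sites, the 8 genes with the most sites and the 8 highest of the cardiac lists (sarcomere, ion channel and calcium handling, transcription factor, fetal); other named genes are members of the lists, picked after their values were seen. Some genes that the rule names are not reported here. The sites, lists and motifs were chosen with earlier results of these data known. Python 3.11.15, numpy 2.4.6 and pandas 2.3.3 were used, and the scripts were tested on simulated data. Chromosomes X and Y were left out by the rule, and the series that supersedes this one was not used here. Alternatives are given in the closing section.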

Additional observations from a re-analysis of the deposited data

How the results depend on the processing

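No paired analysis was possible because the series has 1 group. Of 116 recomputed values, 74 stayed within the tolerance and 42 moved, and the cause was not tested beyond each setting's construction. For counts the tolerance was a 1.5-fold change. For density ratios it was much narrower: without replicate 1, a UTR ratio of 1.162 counted as moved from 1.166. The tally therefore does not measure how stable the results are. Keeping the stronger 50% of peaks left 1776 sites, 564 coding, 865 UTR and 329 in non-coding exons, in 1584 genes, with a median value of 53, a coding GC of 58.7%, density ratios over introns of 1.10 (coding) and 1.25 (UTR), and CTCF in 8.33% of coding sites. With all 150 bp exonic there were 598 coding sites, ratios of 1.53 and 1.19, GC of 60.7% and CTCF in 3.76%. At more than 500 bp from a TSS the ratios were 1.31 and 1.19, GC 58.0% and CTCF 4.48%, and at more than 2000 bp 1.19 and 1.19, GC 55.5%, CTCF 5.03% and 392 sites in non-coding exons. With UTR before coding the ratios were 1.23 and 1.18 and CTCF 5.63%, and with an overlap of 75 bp the coding ratio was 1.22 and CTCF 5.49%. The centre of replicate 1 or 2 alone gave CTCF in 4.98% and 5.12%. Without either replicate, with no partner required, there were 4525 to 5263 sites, 1742 to 2031 coding, 1999 to 2301 UTR and 784 to 931 in non-coding exons, coding ratios of 1.25 to 1.28, UTR ratios of 1.13 to 1.16, median values of 33 to 34 and CTCF in 3.59 to 4.36%. Sites in non-coding exons have no value when only protein-coding transcripts are used. Depth is unknown, and a weak peak missing from 1 list may be below the authors' threshold.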

Other observations

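Some genes had several exonic peaks in 1 library and at most 1 in the other, and such unmatched peaks are not among the sites. These genes were picked after their values were seen. Tnnt2, cardiac troponin T, had 11 exonic peaks over 1 kb from a TSS in replicate 1 and 1 in replicate 2, and its 1 shared site is the one given in the report. Fzd2, a Wnt receptor, had 6 and 1, Ugt1a6a, a glucuronosyltransferase gene, 6 and 0, and Ano6, a lipid scramblase gene, 5 and 0. Aldh4a1, Camk2a and Frmd4a had 4 and 0 each. Fosl2 had more in replicate 2, with 5 in replicate 1 and 9 in replicate 2, and 5 shared sites.

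Some strong exonic sites lay in genes without a promoter peak in either library, at about the same share as exonic sites in general. Of the 140 exonic sites at or above the 90th percentile of all peaks in both libraries, 16 (11.4%) lay in such genes, against 441 of all 3381 exonic sites. Beside those named in the report they include a coding site in Spi1, the transcription factor PU.1 of blood cells, with 87 and 85, a coding site in Padi4, a peptidylarginine deiminase of neutrophils, with 95 and 75, a 3′ UTR site in Loxl2, a collagen cross-linking enzyme, with 98 and 91, and one in Fut2, a fucosyltransferase, with 93 and 89.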
